A study of Mus musculus with 12 samples.

Results

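Endothelial cells line every blood vessel, and in the myocardium most of them form the dense capillary bed that feeds the muscle. Their identity is read here from 10 marker genes: Pecam1, Cdh5, Kdr, Tie1, Tek, Emcn, Flt1, Cldn5, Ly6c1 and Egfl7. Each was taken by its symbol in the platform's gene annotation, with the probe set of highest mean where a gene had several. Of the 10, 9 were measured among 19505 genes, each by 1 probe set, and Egfl7, a secreted factor of endothelial cells, had no probe set under its symbol in that annotation. All 9 lay above the background level on all 12 arrays, so each was detected in this tissue. That level was 4.96 on the log2 scale, the 95th percentile of 246 control probe sets.

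The hearts of 12 mice were measured on single-colour arrays, 1 array per mouse and 4 mice per group. DM_AngIV mice were made diabetic by intraperitoneal streptozotocin, which destroys pancreatic beta cells, on 5 consecutive days, were kept if fasting glucose reached 16.7 mM after 2 weeks, and then received high-dose angiotensin IV by infusion, 2.88 mg/kg/day from the end of week 8 until week 24 had ended. DM mice shared the streptozotocin and the glucose limit but are labelled untreated, and NC mice, also labelled untreated, were given the injection vehicle alone over 5 days. The source labels read 6 months for all groups. Strain, sex and age are not given in the labels, and no vehicle infusion is described for DM or NC mice, so angiotensin IV and the infusion itself cannot be told apart. Values are log2 expression after robust multi-array averaging (RMA). Per array, 42.8% to 43.3% of genes lay above background, and array medians ran between 4.12 and 4.19. RMA brings the arrays to a common distribution, so these shares and medians cannot show whether the arrays were alike.

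The markers fall into classes by role. Kdr (VEGFR2) is the main signalling receptor for vascular endothelial growth factor, and Flt1 (VEGFR1) binds the same ligand tightly but signals weakly, so that it can act as a decoy. Tek (TIE2) is the receptor for angiopoietins, and Tie1 is its partner. Cdh5 (VE-cadherin) and Cldn5 build the adherens and tight junctions between endothelial cells, Pecam1 is an adhesion molecule at cell borders that platelets and leukocytes also carry, Emcn is a sialomucin of capillary and venous surfaces, and in the mouse Ly6c1 is a surface protein of capillary endothelium and of some leukocytes.

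The 3 groups were compared in 1 linear model over all 12 arrays, with p-values from limma adjusted by the Benjamini-Hochberg method over all 19505 genes and a call at an adjusted p below 0.05. In DM_AngIV hearts against NC hearts, 1 of the 9 markers was called, Ly6c1, which was higher. The share of all genes called there was 1.02%, and 5 markers had an unadjusted p below 0.05, against 14.6% of all genes. Of the 9 markers, 0 were called in DM hearts against NC hearts, where 0.0154% of all genes were called, and 3 markers had an unadjusted p below 0.05, against 8.95% of all genes. In DM_AngIV hearts against DM hearts 0 were called as well, with 0% of all genes called and 0 markers at an unadjusted p below 0.05, against 7.48% of all genes. A moderated F test over the groups called 0 of 9 markers, against 0.385% of all genes, with 4 markers at an unadjusted p below 0.05, against 12.2% of all genes. The comparisons share arrays and are not independent of each other. In a bulk sample, fewer cells of a type and less RNA per cell cannot be told apart.

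**Figure D1:**
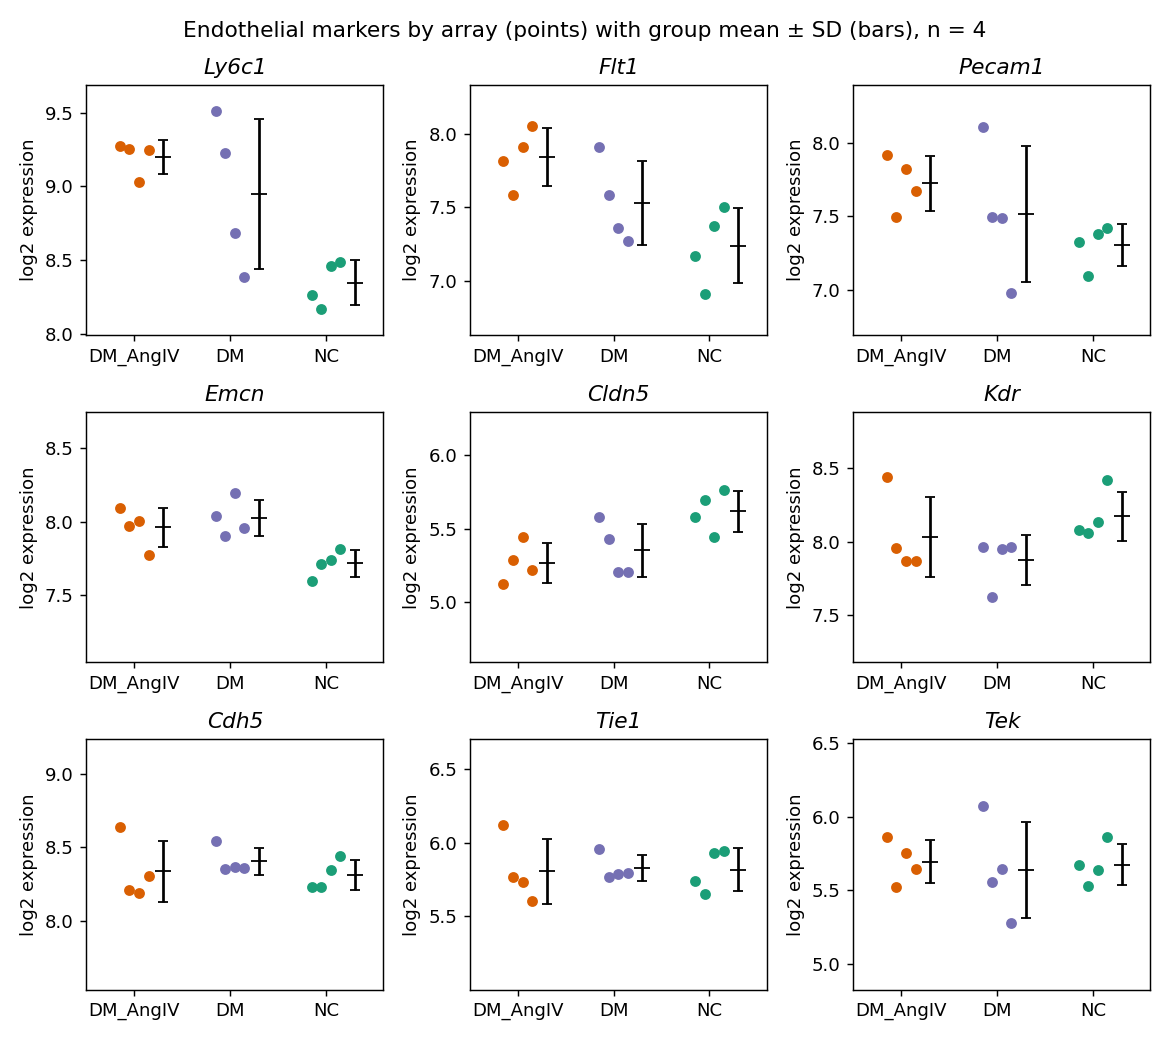
Log2 expression of the 9 measured endothelial markers, 1 panel per gene, with 4 arrays as points and the mean ± SD as a bar for DM_AngIV, DM and NC. Every panel spans the same height on the log2 axis. The DM_AngIV points of Ly6c1 lie between 9.03 and 9.27 and those of NC between 8.17 and 8.49, while the points of Tek and Tie1 overlap in all groups.

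Ly6c1 had the largest log2 fold change of the 9 markers in both comparisons with NC, while in DM_AngIV against DM that of Flt1 was larger. Ly6c1 had log2 values of 9.27, 9.25, 9.03 and 9.25 in DM_AngIV hearts, 9.51, 9.23, 8.68 and 8.38 in DM hearts, and 8.26, 8.17, 8.46 and 8.49 in NC hearts. All DM_AngIV arrays were above all NC arrays, whereas the DM arrays were split, with replicates 1 and 2 near or above the treated hearts and replicate 4 within the NC range. Ly6c1 was 0.86 ± 0.19 (SE) higher on the log2 scale in DM_AngIV than in NC, a 1.81-fold difference (limma adjusted p = 0.0446). It was 0.60 ± 0.19 above NC in DM (limma adjusted p = 0.340) and 0.25 ± 0.19 above DM in DM_AngIV (0.784), which was within the spread of the DM arrays. The F test gave Ly6c1 an adjusted p of 0.111. Leaving out 1 array of NC or of DM_AngIV, whichever it was, or DM replicate 2 ended the call, with adjusted p-values of 0.0506 to 0.124, while the difference stayed between 0.80 and 0.91.

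A near relative of Ly6c1, Ly6c2, encodes a surface protein found on inflammatory monocytes in the mouse. Its log2 values were 6.28, 6.54, 6.30 and 6.49 in DM_AngIV hearts, 6.78, 6.50, 5.97 and 6.01 in DM hearts, and 5.41, 5.77, 5.80 and 5.96 in NC hearts. The arrays fell in nearly the same pattern as for Ly6c1, and DM_AngIV and DM arrays were all above NC arrays, narrowly so in DM. Ly6c2 had a log2 fold change of 0.67 ± 0.17 in DM_AngIV against NC (limma adjusted p = 0.0768), 0.58 ± 0.17 in DM against NC (0.308) and 0.09 ± 0.17 in DM_AngIV against DM (0.940). The difference between the log2 values of Ly6c1 and Ly6c2 lay between 2.72 and 2.99 in DM_AngIV, 2.37 and 2.73 in DM, and 2.40 and 2.86 in NC. Whether the probes of each gene also bind the RNA of the other was not tested.

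The RefSeq start regions of both genes are shown because their values ran together across the arrays. Each window covers 250 bases before and 50 bases after the annotated start, 5′ to 3′ on the gene's strand, in GRCm38.p6. The first RefSeq window of Ly6c1 is chr15:75048788-75049087, minus strand, and that of Ly6c2 is chr15:75111922-75112221, minus strand. RefSeq lists 2 windows for each gene. Capitals mark GGAAGT, a motif of the ETS family of transcription factors, on either strand. Also searched on both strands were AACAGGAA, the core of the FOX:ETS motif of endothelial enhancers, which overlaps GGAAGT where GT follows it, and GGGCGG, the GC box.
Ly6c1: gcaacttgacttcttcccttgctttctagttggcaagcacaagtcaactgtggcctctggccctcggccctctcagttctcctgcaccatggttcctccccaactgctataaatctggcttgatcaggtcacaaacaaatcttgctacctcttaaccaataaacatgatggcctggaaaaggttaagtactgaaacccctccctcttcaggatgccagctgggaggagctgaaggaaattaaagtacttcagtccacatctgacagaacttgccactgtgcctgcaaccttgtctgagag
Ly6c2: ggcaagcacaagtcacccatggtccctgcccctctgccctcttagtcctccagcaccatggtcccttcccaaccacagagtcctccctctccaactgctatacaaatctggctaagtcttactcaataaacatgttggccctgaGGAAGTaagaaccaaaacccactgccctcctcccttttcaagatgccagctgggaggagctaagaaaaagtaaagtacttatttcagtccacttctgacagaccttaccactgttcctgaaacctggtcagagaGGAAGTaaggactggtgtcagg
These windows were identical at 78.2% of 266 aligned positions, and the other pairings of the windows of both genes at 62.2% to 88.4%. GGAAGT was found at 2 places in the Ly6c2 window, and GGAAGT, AACAGGAA and GGGCGG were not found in the Ly6c1 window. The shorter ETS core GGAA was found at 4 places in each window, and 96.0% of mouse windows hold it. Motif places are given for the first window of each gene only. Of 32851 mouse windows, 23.8% hold GGAAGT, 2.65% hold AACAGGAA and 35.7% hold GGGCGG. A match is a description of the letters only.

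Markers of macrophages and monocytes, Ly6c2 among them, had mostly positive values in the comparisons with NC. Of 14 listed, 13 were measured, Ly6c2 included, and 11 lay above background on at least 1 array. Ccr2 and Cx3cr1 did so on none. In DM_AngIV against NC, 12 of 13 had a positive log2 fold change, against 48.5% of all genes, and 0 were called. The median was 0.28, which is the value of Ccr2, against -0.0070 over all genes. The largest values of the list were those of Lyz2, the lysozyme of myeloid cells, with 0.71 (limma adjusted p = 0.155), and Cd163, a scavenger receptor of resident macrophages, with 1.18 (0.0810). The mean of these markers without Ly6c2 ran over 5.37 to 5.83 in DM_AngIV, 5.26 to 6.18 in DM and 5.24 to 5.43 in NC. It was highest in DM replicate 1, which was also highest in Ly6c1 and Ly6c2, while DM_AngIV replicate 4 had a macrophage mean of 5.37, within the NC range, beside a Ly6c1 value of 9.25. With this mean as a covariate, Ly6c1 had a log2 fold change of 0.56 in DM_AngIV against NC (limma adjusted p = 0.330), where 10 genes were called in all.

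**Figure D2:**
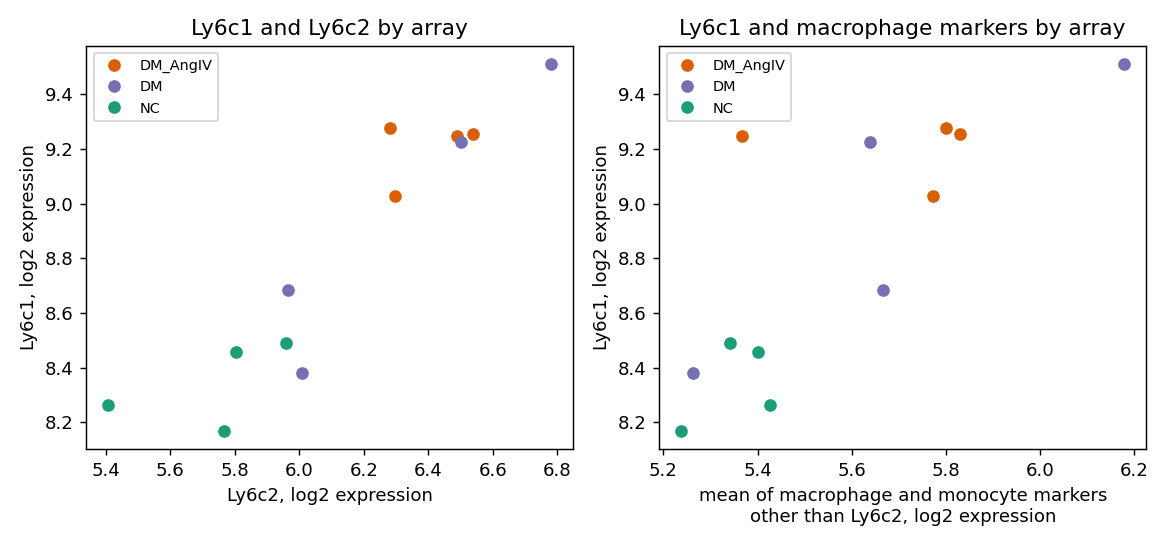
Log2 expression of Ly6c1 (vertical axes) in each of the 12 arrays against Ly6c2 (left) and against the mean of the macrophage and monocyte markers other than Ly6c2 (right), with arrays coloured as DM_AngIV, DM or NC. DM replicate 1 is the highest point in both panels, and 1 DM_AngIV array combines a macrophage mean of 5.37 with a Ly6c1 value of 9.25.

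The receptors of vascular endothelial growth factor had values of opposite sign in the comparisons with NC, positive for Flt1 and negative for Kdr, and both were positive in DM_AngIV against DM, with neither called in any comparison. Flt1 had log2 values of 7.81, 7.58, 7.91 and 8.05 in DM_AngIV hearts, 7.91, 7.58, 7.36 and 7.27 in DM hearts, and 7.17, 6.91, 7.37 and 7.50 in NC hearts. DM_AngIV arrays were all above NC arrays, and DM arrays overlapped both. The log2 fold change of Flt1 was 0.60 ± 0.16 (SE) in DM_AngIV against NC, a ratio of 1.52, which missed the threshold (limma adjusted p = 0.0845). It was 0.29 ± 0.16 in DM against NC (limma adjusted p = 0.634) and 0.31 ± 0.16 in DM_AngIV against DM (0.679).

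Kdr had log2 values of 8.44, 7.96, 7.86 and 7.87 in DM_AngIV hearts, 7.97, 7.62, 7.95 and 7.97 in DM hearts, and 8.08, 8.06, 8.13 and 8.41 in NC hearts. All DM arrays were below all NC arrays, and DM_AngIV replicate 1 was the highest of all 12 arrays while the other 3 treated hearts were below NC. The log2 fold change of Kdr was -0.29 ± 0.14 in DM against NC (limma adjusted p = 0.571), 0.16 ± 0.14 in DM_AngIV against DM (0.821) and -0.14 ± 0.14 in DM_AngIV against NC (0.716). The log2 value of Kdr less that of Flt1 lay between -0.18 and 0.62 in DM_AngIV, between 0.04 and 0.70 in DM and between 0.76 and 1.15 in NC. All 4 NC arrays had a larger difference than the other 8. This difference was examined after the values were seen and was given no test.

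The start regions of these paralogous receptors are shown because the difference between their values was smaller in all DM_AngIV and DM hearts than in NC hearts. The Flt1 window is chr5:147725962-147726261 and the Kdr window is chr5:75978406-75978705, both on the minus strand of GRCm38.p6, from RefSeq and with the same span as above. Capitals mark GGAAGT and the GC box GGGCGG on either strand.
Flt1: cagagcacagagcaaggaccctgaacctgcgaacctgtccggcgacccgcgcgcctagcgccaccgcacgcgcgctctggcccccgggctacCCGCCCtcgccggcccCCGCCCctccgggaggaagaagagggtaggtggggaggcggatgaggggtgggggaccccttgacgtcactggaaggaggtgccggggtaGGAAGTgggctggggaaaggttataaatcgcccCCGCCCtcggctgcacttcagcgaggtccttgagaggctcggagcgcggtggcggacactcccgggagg
Kdr: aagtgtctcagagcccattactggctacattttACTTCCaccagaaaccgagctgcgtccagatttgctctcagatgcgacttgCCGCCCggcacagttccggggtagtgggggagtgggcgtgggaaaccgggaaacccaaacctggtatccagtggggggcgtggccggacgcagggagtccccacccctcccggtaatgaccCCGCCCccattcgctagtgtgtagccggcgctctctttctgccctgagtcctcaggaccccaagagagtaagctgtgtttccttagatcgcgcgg
Each window holds GGAAGT once, at -52 on the gene's strand in Flt1 and at -217 on the opposite strand in Kdr, counted from the annotated start. Flt1 has 3 GC boxes and Kdr has 2. The windows were identical at 56.4% of 273 aligned positions.

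The receptors of the angiopoietin system had overlapping groups in all comparisons. Tek had log2 values of 5.86, 5.52, 5.75 and 5.64 in DM_AngIV hearts, 6.07, 5.56, 5.65 and 5.28 in DM hearts, and 5.68, 5.53, 5.64 and 5.86 in NC hearts. The DM hearts held both the highest and the lowest array. Tie1 had 6.12, 5.76, 5.74 and 5.60 in DM_AngIV hearts, 5.96, 5.77, 5.79 and 5.79 in DM hearts, and 5.74, 5.65, 5.93 and 5.94 in NC hearts. The groups of Tie1 overlapped too, with both the highest and the lowest array among the DM_AngIV hearts. The 95% interval of the log2 fold change in DM_AngIV against NC ran from -0.29 to 0.33 for Tek (limma adjusted p = 0.971) and from -0.27 to 0.25 for Tie1 (0.981). In DM against NC it ran from -0.35 to 0.28 for Tek (limma adjusted p = 0.974) and from -0.25 to 0.27 for Tie1 (0.992). In DM_AngIV against DM it ran from -0.26 to 0.37 for Tek (limma adjusted p = 0.954) and from -0.28 to 0.24 for Tie1 (0.982). These intervals hold for single genes and are not adjusted.

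The junction and adhesion markers went different ways. Cldn5 had log2 values of 5.12, 5.29, 5.44 and 5.22 in DM_AngIV hearts, 5.58, 5.43, 5.21 and 5.21 in DM hearts, and 5.58, 5.69, 5.44 and 5.76 in NC hearts. The DM_AngIV values were all below the NC values, by a narrow margin, and every array was close to the background level. The log2 fold change of Cldn5 was -0.35 ± 0.12 (SE) in DM_AngIV against NC (limma adjusted p = 0.173), -0.26 ± 0.12 in DM against NC (0.525) and -0.09 ± 0.12 in DM_AngIV against DM (0.897).

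Pecam1 had 7.92, 7.49, 7.82 and 7.67 in DM_AngIV hearts, 8.11, 7.49, 7.49 and 6.98 in DM hearts, and 7.32, 7.10, 7.38 and 7.42 in NC hearts. DM_AngIV arrays were all above NC arrays, and the DM hearts spanned more than both other groups together. The log2 fold change of Pecam1 was 0.42 ± 0.18 in DM_AngIV against NC (limma adjusted p = 0.301), 0.21 ± 0.18 in DM against NC (0.788) and 0.21 ± 0.18 in DM_AngIV against DM (0.817). With the macrophage mean as a covariate its value in DM_AngIV against NC was 0.09 (limma adjusted p = 0.900). Platelet markers, with a median log2 fold change of -0.17 in DM_AngIV against NC, had a mean that lay between 4.51 and 4.75 in DM_AngIV, between 4.78 and 5.10 in DM and between 4.60 and 5.07 in NC, with 3 of 5 measured markers above background.

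Emcn had log2 values of 8.09, 7.97, 8.01 and 7.78 in DM_AngIV hearts, 8.04, 7.91, 8.19 and 7.96 in DM hearts, and 7.60, 7.71, 7.74 and 7.82 in NC hearts. DM arrays were all above NC arrays, and of the DM_AngIV arrays only replicate 4 was within the NC range. The log2 fold change of Emcn was 0.31 ± 0.11 in DM against NC (limma adjusted p = 0.390), -0.06 ± 0.11 in DM_AngIV against DM (0.917) and 0.25 ± 0.11 in DM_AngIV against NC (0.295). Cdh5 had 8.64, 8.21, 8.19 and 8.31 in DM_AngIV hearts, 8.54, 8.35, 8.37 and 8.36 in DM hearts, and 8.23, 8.23, 8.35 and 8.44 in NC hearts. The groups overlapped, and the highest array was DM_AngIV replicate 1. The log2 fold change of Cdh5 was 0.02 ± 0.11 in DM_AngIV against NC (limma adjusted p = 0.955), 0.09 ± 0.11 in DM against NC (0.872) and -0.07 ± 0.11 in DM_AngIV against DM (0.915).

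**Figure D3:**
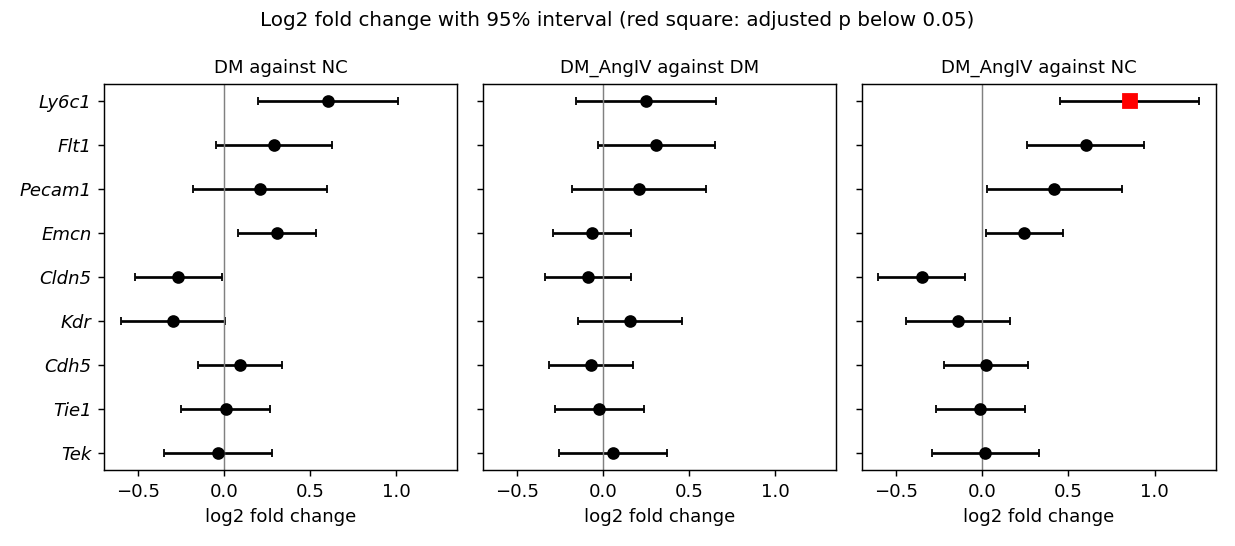
Log2 fold change (horizontal axes) with its unadjusted 95% interval for each measured endothelial marker in the 3 comparisons (DM with NC, DM_AngIV with DM, DM_AngIV with NC), n = 4 arrays per group. The red square marks Ly6c1 at 0.86 in DM_AngIV against NC, the one value with an adjusted p below 0.05.

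Read as a group, the markers were split in direction. In DM_AngIV against NC, 6 of 9 had a positive and 3 a negative log2 fold change, with a median of 0.02, against -0.0070 over all genes. In DM against NC the split was again 6 and 3, with a median of 0.09, against -0.0010 over all genes. In DM_AngIV against DM it was 5 and 4, with a median of 0.06, against -0.00071 over all genes. In DM_AngIV against NC, 3 markers (Ly6c1, Flt1 and Pecam1) had all treated arrays above all NC arrays, which was so for 5.63% of all genes, and 1 marker (Cldn5) had them all below, which was so for 4.2%. In DM against NC these were 1 marker higher (Emcn, against 2.45% of all genes) and 1 lower (Kdr, against 2.09%). In DM_AngIV against DM, 0 markers separated in either direction, with 2.81% of all genes higher and 2.2% lower.

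Differences between single hearts cut across the groups. The mean over the 9 markers was 7.48, 7.23, 7.31 and 7.26 in DM_AngIV hearts, 7.52, 7.21, 7.19 and 7.02 in DM hearts, and 7.07, 7.01, 7.16 and 7.29 in NC hearts. The groups overlapped, and the DM hearts spanned the widest range. DM replicate 1 and DM_AngIV replicate 1 were each above the gene's own mean in 8 of 9 markers, and each was the highest of the 12 arrays in 3. NC replicate 2 was among the lowest 3 arrays in 7 markers. The other pan-endothelial genes had a mean of 6.32 in DM replicate 1 and 6.27 in DM_AngIV replicate 1, the highest of the arrays, and of 5.83 in NC replicate 2, the lowest. Markers of ventricular muscle ranged only from 10.25 to 10.45. Myl7, the light chain of atrial myosin, was at 8.86, 9.68 and 8.10 in DM replicates 1, 2 and 4 and at 10.08 and 7.90 in NC replicates 1 and 3, and below background on all other arrays. The arrays below background include all 4 DM_AngIV arrays, so the groups were not even in atrial signal. Leaving out the arrays above background keeps DM replicate 3 alone of the DM arrays and NC replicates 2 and 4 of the NC arrays. Without the 5 arrays with Myl7 above background, Ly6c1 had a log2 fold change of 0.87 in DM_AngIV against NC (limma adjusted p = 0.0505).

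**Figure D4:**
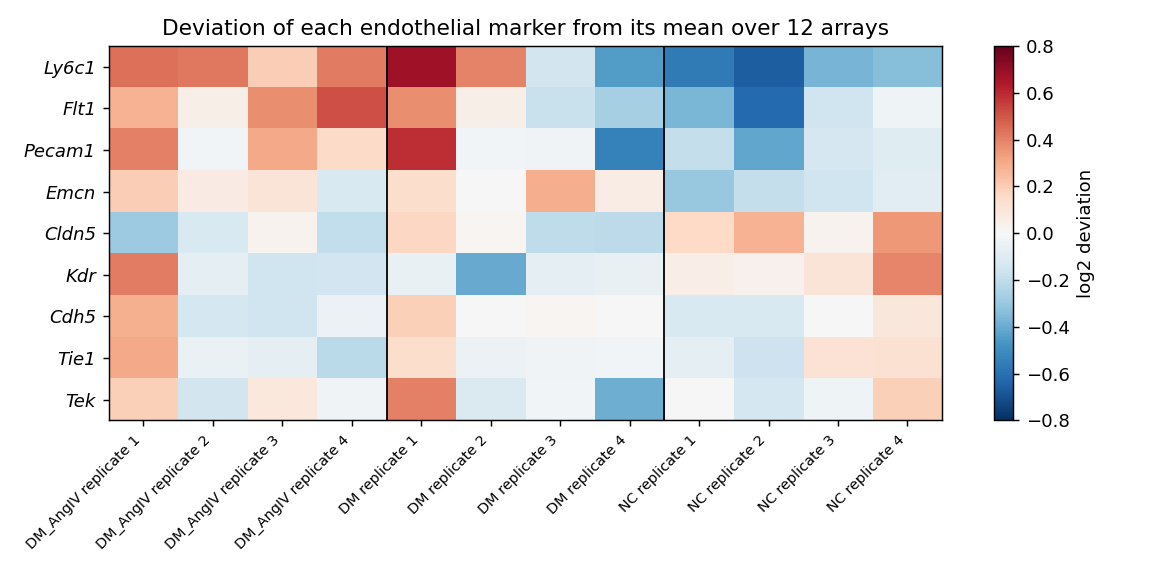
Deviation of each measured endothelial marker (rows) from its own mean over the 12 arrays (columns, DM_AngIV, then DM, then NC), in log2 units by colour, red above and blue below the mean. DM replicate 1 and DM_AngIV replicate 1 are red in 8 of 9 rows each.

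The 5 genes above background whose values most resembled the mean of the markers over the 12 arrays, out of 9793 genes, were Hnrnpf (Pearson r = 0.93), Mgll (0.93), Tgm2 (0.92), Prkch (0.90) and Cr1l (0.90). Spearman's rho was 0.94, 0.80, 0.87, 0.87 and 0.90 in the same order. Hnrnpf encodes an RNA-binding protein, Mgll a lipase of monoacylglycerols, Tgm2 a transglutaminase, Prkch a protein kinase C and Cr1l a regulator of complement. After the group means were removed, r lay between 0.90 and 0.96, so the likeness was also present between hearts of the same group. They were picked as the highest values, so r is a description and has no p.

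Other endothelial genes were counted in lists. Among 24 further pan-endothelial genes, 19 had a positive log2 fold change in DM against NC, against 49.8% of all genes, and 0 were called there. In DM_AngIV against NC 18 were positive, against 48.5% of all genes. At an unadjusted p below 0.05 in that comparison, 5 were higher and 1 lower, against 14.6% of all genes. Of the 24, 1 was called there, against 1.02% of all genes. This was Adgrf5, an adhesion receptor of capillary endothelium, with 8.98, 8.93, 8.82 and 8.96 in DM_AngIV hearts, 9.11, 8.82, 8.48 and 8.46 in DM hearts, and 8.37, 8.21, 8.40 and 8.23 in NC hearts. All DM_AngIV and all DM arrays were above all NC arrays. Adgrf5 was 0.62 ± 0.13 (SE) higher in DM_AngIV than in NC (limma adjusted p = 0.0372). Its value was 0.41 ± 0.13 in DM against NC (limma adjusted p = 0.351), and it lost its call under 13 of 26 alternatives, among them the macrophage covariate, with 0.44 (limma adjusted p = 0.298). Adgrl4, also an adhesion receptor of endothelium, had 0.47 in DM_AngIV against NC (limma adjusted p = 0.111) and 0.40 in DM against NC (0.390).

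Genes that mark heart capillaries had the largest positive median in DM against NC of the endothelial lists. Of the 15 measured besides Kdr, 11 were positive in DM against NC, with a median of 0.30, and 10 in DM_AngIV against NC, with a median of 0.22. In both comparisons 0 were called, with 7 and 6 at an unadjusted p below 0.05, against 8.95% and 14.6% of all genes in the same order. Fabp4, the fatty acid binding protein that adipocytes share, had a mean of 11.21 ± 0.10 in DM_AngIV, 11.24 ± 0.09 in DM and 10.81 ± 0.07 in NC (SD, n = 4 each), a log2 fold change of 0.40 in DM_AngIV against NC (limma adjusted p = 0.0621) and 0.44 in DM against NC (0.152). Cd300lg, a receptor of capillary endothelium, had 0.48 in DM_AngIV against NC (limma adjusted p = 0.0515) and 0.39 in DM against NC (0.295). For both genes, all arrays of either diabetic group lay above all NC arrays. In DM_AngIV against DM the list had 8 positive and 7 negative values, 0 called and 3 at an unadjusted p below 0.05 (7.48% of all genes), and Aqp7, a channel for glycerol, had -0.32 (limma adjusted p = 0.600).

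Ligands and regulators of the receptors above were not called in any comparison. Of 13 measured, 8 were negative in DM_AngIV against NC, with a median of -0.05. At an unadjusted p below 0.05 were 5 (14.6% of all genes), of which 2 were higher and 3 lower. Among the lower were Nrp2, with -0.46 (limma adjusted p = 0.132), and Aplnr, also in the venous list, with -0.87 (0.145). Vegfa, the main ligand of Kdr and Flt1, had 8.77, 8.33, 8.57 and 8.82 in DM_AngIV hearts, 8.39, 8.15, 8.35 and 8.20 in DM hearts, and 8.44, 8.25, 8.40 and 8.73 in NC hearts. The groups overlapped. Its log2 fold change was 0.35 ± 0.13 in DM_AngIV against DM (limma adjusted p = 0.620), -0.18 ± 0.13 in DM against NC (0.742) and 0.17 ± 0.13 in DM_AngIV against NC (0.599). Vegfb, a ligand of Flt1, had -0.04 in DM_AngIV against NC (limma adjusted p = 0.915). Angpt1, the activating ligand of Tek, had 0.09 there (limma adjusted p = 0.930). Pgf, another ligand of this list, was above background on only 4 arrays. It had 0.55 in DM against NC (limma adjusted p = 0.323) and 0.38 in DM_AngIV against NC (0.307). In DM_AngIV against DM, Pgf had -0.17 (limma adjusted p = 0.842). Angpt2, the context-dependent ligand of Tek, was not above background on any array. Hif1a, the hypoxia-inducible factor, had 0.47 in DM_AngIV against NC (limma adjusted p = 0.0897) and 0.29 in DM against NC (0.525).

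Transcription factors of the endothelium were not called in any comparison. Of 25 measured, 13 were positive in DM_AngIV against NC, with a median of 0.02. At an unadjusted p below 0.05 were 8 (14.6% of all genes), of which 3 were higher and 5 lower. The 5 lower ones are not named here. Epas1, which encodes HIF-2α, had 8.59, 8.40, 8.26 and 8.31 in DM_AngIV hearts, 8.51, 8.15, 7.98 and 7.87 in DM hearts, and 7.63, 7.59, 7.96 and 8.06 in NC hearts. Treated hearts were all above NC hearts, with a log2 fold change of 0.58 (limma adjusted p = 0.0761). Nr2f2, a factor of venous identity, had 0.50 in the same comparison (limma adjusted p = 0.113). Erg, the ETS factor that maintains endothelial identity, had 0.02 (limma adjusted p = 0.970) and Foxo1 had 0.02 (0.965), both in DM_AngIV against NC. Nos3, the endothelial nitric oxide synthase, had -0.36 there (limma adjusted p = 0.265) and was above background on 9 of 12 arrays.

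Lists for vessel types gave 0 calls in DM_AngIV against NC for the arterial (17 measured, median 0.10), venous (10, median 0.22), activated (12, median 0.15), junction and basement membrane (16, median 0.08) and endocardial genes (9, median 0.01). The medians of these lists in DM against NC were -0.01, 0.16, 0.21, 0.06 and 0.10 in the same order, also with 0 calls. In DM_AngIV against DM they were -0.02, 0.05, -0.06, 0.02 and -0.09, again with 0 calls. Vcam1, the adhesion molecule of activated endothelium, had 0.93 in DM_AngIV against NC (limma adjusted p = 0.161). F11r, a tight junction adhesion molecule, had 0.49 (limma adjusted p = 0.135), and Col4a1, a chain of basement membrane collagen, had -0.35 (0.218). Alpl, the alkaline phosphatase of arterial endothelium and other cells, had -0.58 in DM_AngIV against DM (limma adjusted p = 0.488).

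**Figure D5:**
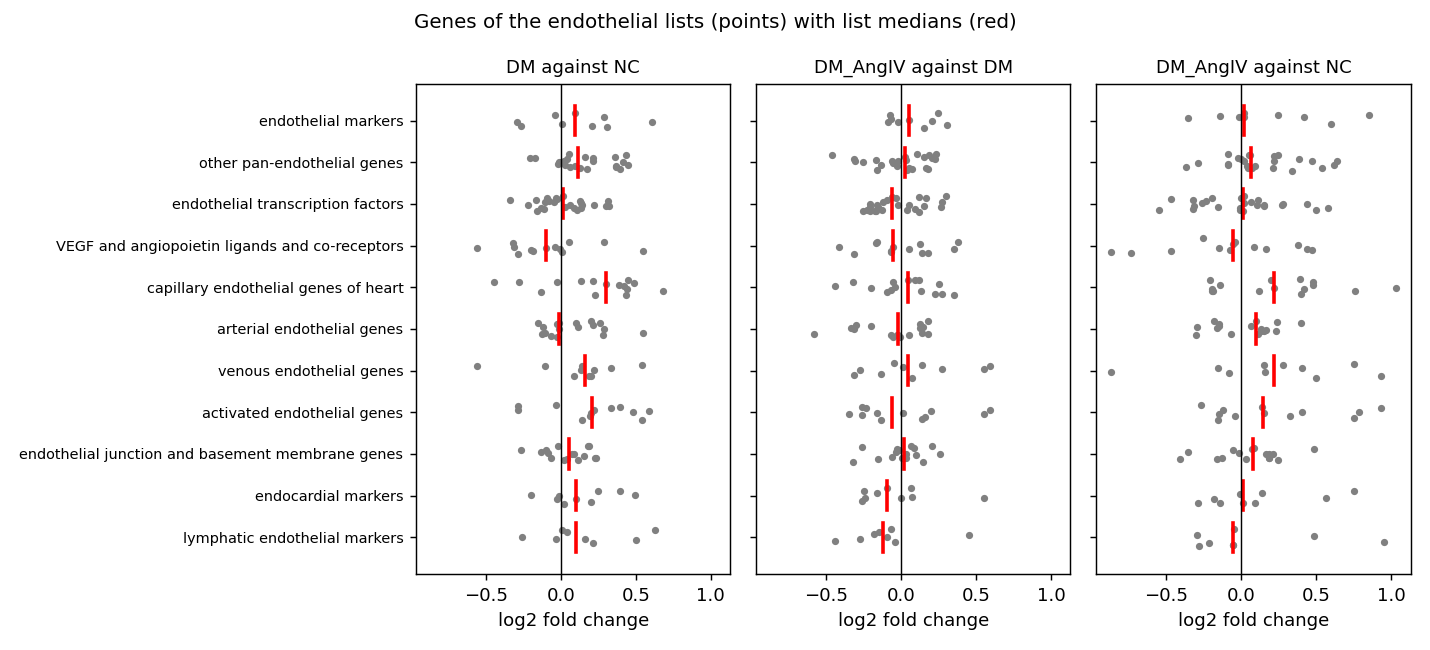
Log2 fold change (horizontal axes) of each measured gene (grey points) in 11 endothelial lists, with the list median in red, in the same 3 comparisons. The vertical position within a list is arbitrary, some genes stand in several lists, and genes below background are included. The capillary list has medians of 0.30 and 0.22 in the comparisons with NC.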

How the data were processed

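The authors deposited 1 table of log2 values, made by RMA per the submitters' processing notes, with 29129 probe sets and a column for each of 12 arrays. Neither its version nor its annotation is stated in the sources used here. Per the labels' protocols, 6 µg of total RNA went into each biotinylated cRNA. RMA brings the arrays to a common distribution, so a shift of all genes would not be seen. There is no depth to set the precision, which the number of arrays limits.

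Symbols came from the platform annotation. For 55 symbols with several probe sets the one with the highest mean was kept, which left 19505 genes. Group means were estimated jointly from the 12 arrays in limma 3.58.1 (lmFit, eBayes; R 4.3.3). Contrasts were tested two-sided with moderated statistics and Benjamini-Hochberg adjustment over all genes. The fit was tested on simulated data. The p-values measure the spread between these mice. Start regions were taken from RefSeq tables (GRCm38.p6). They held an entry for 7 of the 9 measured markers, and those of Ly6c1, Flt1 and Kdr are printed. Aligned positions are from Biopython 1.88, and figures from matplotlib 3.10.9 in Python 3.11.15.

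The members and the 22 gene lists were chosen with earlier results of these data known. Named genes are the markers, Ly6c2, Myl7, the 2 genes above background with the smallest unadjusted p in each endothelial list and comparison, a few vascular genes whatever their values (Foxo1, Vegfa, Vegfb, Angpt1, Angpt2, Nos3 and Erg) and the 5 genes most like the markers' mean. Part of the list genes is left out of the text. Genes that complete a count, and Cd163, Lyz2, Ccr2, Cx3cr1, Myl4, Sln, Pparg, Lipe and Cidea, were chosen after their values were seen. Alternatives covered the threshold, dim genes, the arrays fitted, the replicate block, the probe set rule, scaling, array weights, the variance prior, atrial signal and each array left out. The macrophage covariate, a covariate from Myl7, Myl4 and Sln, and the fit without NC replicate 4 and DM_AngIV replicate 1 were added after the data were seen.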

Additional observations from a re-analysis of the deposited data

Results flagged for a closer look

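In a group of 4 arrays, a value stands apart here when its gap to the nearest other array exceeds Dixon's 95% critical share of the group's range. Of 186 groups tested, 12 had such an array, where chance alone gives about 1 in 20, or 9.3. Of 27 groups of the measured endothelial markers, 5 did. The markers share arrays, so these groups are not independent, and the share over all genes was not computed. The 5 are therefore no evidence of an excess. DM replicate 1 was high in Cdh5, at 8.54, and in Tie1, at 5.96, and also in Cr1l, at 8.40. Kdr was high in DM_AngIV replicate 1, at 8.44, and low in DM replicate 2, at 7.62. Ly6c1 was low in DM_AngIV replicate 3, at 9.03, within a narrow group. Among the other genes, Vcam1 was low in DM_AngIV replicate 4, at 5.40, and Foxo1 in DM_AngIV replicate 2, at 5.25. In NC hearts, Adgrl4 was low in replicate 1, at 7.59, Icam2 high in replicate 4, at 5.45, and Lcn2 low in replicate 3, at 2.61, and Plvap low in replicate 4, at 3.86, both below background there.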

How the results depend on the processing

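The log2 fold changes of the 9 measured markers in the comparisons gave 27 values, of which 18 kept their sign under all 26 alternatives. Many of these alternatives could not change a sign. The threshold, the genes tested, the block, the variance prior and the probe set rule leave a marker's fold change as it is. So does leaving out arrays of the group that is not compared. The call of Ly6c1 in DM_AngIV against NC held under 11 of 26, with the value between 0.56 and 0.98 and the adjusted p between 0.00569 and 0.330. Flt1 had an adjusted p below 0.05 under 2 of 26 (adjusted p 0.0277 to 0.443). It also passed where the threshold was 0.10. The cause of these changes was not tested. Cldn5 lay close to the background level on every array. Fewer arrays or genes in a fit also change how easily a gene passes.

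At an adjusted p below 0.10, 17 genes were called in DM against NC, 509 in DM_AngIV against NC (2 markers) and 194 by the F test. With genes above the median of all means, these were 20, 504 (2 markers) and 236, and with a trended, robust prior 28, 514 and 277. Without arrays with Myl7 above background they were 0, 50 (0 markers) and 17, and with the macrophage covariate 1, 10 (0 markers) and 2. With the covariate of Myl7, Myl4 and Sln, 0 markers were called in DM_AngIV against NC. Without both NC replicate 4 and DM_AngIV replicate 1, 63 genes (0 markers) and 13 by the F test were called. With 1 array left out, calls numbered 2 (without NC replicate 3) to 30 (without DM replicate 4) in DM against NC, 0 to 5 (without DM_AngIV replicate 2) in DM_AngIV against DM, 81 (without NC replicate 2) to 302 (without DM replicate 1) in DM_AngIV against NC, with 0 to 1 markers, and 14 (without NC replicate 4) to 134 (without DM replicate 1) by the F test. With the replicate number as a block, 115 genes (0 markers, Ly6c1 at an adjusted p of 0.0667) were called in DM_AngIV against NC and 19 by the F test. The labels share only a number: same-numbered arrays deviated together with r from -0.12 to 0.27.

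The values that changed sign were not called, before or after. In DM against NC, the macrophage covariate turned Pecam1 to -0.11 and Tie1 to -0.097, and array weights turned Tie1 to -0.017. Without the arrays with Myl7 above background, Tie1 was -0.0092 and Lcn2 -0.47. There DM replicate 3 was the only DM array left, beside NC replicates 2 and 4, and Lcn2 was below background on each of these. The fit without NC replicate 4 and DM_AngIV replicate 1 turned Tek to 0.026. With 1 array left out, Tie1 ran from -0.046 to 0.052 and Tek from -0.18 to 0.083. In DM_AngIV against DM, without the arrays with Myl7 above background, Tie1 was 0.020, Cldn5 0.061 and Reln 0.11, again with DM replicate 3 alone. With 1 array left out, Tie1 ran from -0.13 to 0.047, Tek from -0.063 to 0.20, Ly6c2 from -0.030 to 0.24 and Cgnl1 from -0.24 to 0.011. In DM_AngIV against NC, quantile normalization gave Cdh5 -0.021, Tek -0.0051 and Erg -0.016, and array weights gave Cdh5 -0.00060, Tek -0.0077 and Erg -0.015. Without the arrays with Myl7 above background Cdh5 was -0.00040 and Tie1 0.011, and with median centring Tie1 was 0.0037. The macrophage covariate gave Cdh5 -0.039, Tek -0.21, Foxo1 -0.050, Vegfb 0.12 and Erg -0.11. Without NC replicate 4 and DM_AngIV replicate 1, Cdh5 was -0.034 and Erg -0.023. With 1 array left out, Cdh5 ran from -0.077 to 0.072, Tie1 from -0.12 to 0.057, Tek from -0.036 to 0.082, Foxo1 from -0.036 to 0.14, Vegfb from -0.083 to 0.012, Angpt1 from -0.20 to 0.34 and Erg from -0.079 to 0.082.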

Other observations

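Lymphatic endothelial genes gave 1 call, in DM_AngIV against NC, where 1.02% of all genes were called. It was Mmrn1, a multimerin of lymphatic vessels (limma adjusted p = 0.0380, higher in DM_AngIV), which was not above background on any array, so no fold is given. Of the 8 measured lymphatic genes, 6 were negative in DM_AngIV against NC, with a median of -0.05, and 7 were negative in DM_AngIV against DM, with 0 called there and 0 in DM against NC. Lyve1, a hyaluronan receptor of lymphatic endothelium and of some macrophages, had a mean of 6.97 ± 0.35 in DM_AngIV, 7.11 ± 0.67 in DM and 6.48 ± 0.25 in NC (SD, n = 4 each), with a log2 fold change of 0.63 in DM against NC (limma adjusted p = 0.494).

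Among the cells that surround the endothelium, 12 of 13 genes of smooth muscle and pericytes were positive in DM_AngIV against DM, with a median of 0.21 and 0 called. Of 10 fibroblast genes, 8 were negative in DM_AngIV against NC, with a median of -0.19. There 1 was called, against 1.02% of all genes: Col3a1, which encodes a fibrillar collagen and was lower. In DM_AngIV against NC, 0 genes were called among the markers of ventricular muscle (14 measured, median 0.02), atrial muscle (9, median -0.12), adipocytes (10, median -0.12), red cells (2, median 0.12), mesothelium (6, median -0.02) and nerve (4, median 0.02). The atrial median hides large values: Myl7 had -2.77, Myl4 -2.01 and Sln -1.81 (limma adjusted p = 0.317, 0.270 and 0.301). Of the 9 atrial genes, 4 were positive and 5 negative. The adipocyte median rests on genes below background. The 4 adipocyte genes above background on any array were positive: Pparg 0.69, Lipe 0.61, Fabp4 0.40 and Cidea 0.24 (limma adjusted p = 0.0917, 0.200, 0.0621 and 0.480). The 6 others were negative. Only 1 mesothelial and 1 nerve gene were above background on any array. T, B and NK cell markers were above background on no array. In the other comparisons these lists, platelets included, had 0 calls.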
